A study of Homo sapiens with 9 samples.

Results

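The comparison set 3 RNA-seq libraries of HCT116 cells, a long-established line from a human colorectal carcinoma, against 2 others of the same line, out of 9 in the series. The libraries were chosen on measured values: the 3 had high HMGCS1 and low MKI67, and the 2 had the lowest FOS level of the 6 libraries with low HMGCS1 and high MKI67. The sets cross the sample titles. The trio takes 1 library from each label: replicate 3 of shCTRL DMSO, replicate 1 of shSLC6A3 DMSO, and replicate 3 of shCTRL VXN, whose title spells the agent VNN. The pair holds those labelled shSLC6A3 DMSO replicates 2 and 3. Another library, labelled shCTRL VXN replicate 2, was left out of both sets and is shown beside them. The remaining 3 are shCTRL DMSO replicates 1 and 2 and shCTRL VXN replicate 1. By the labels, shCTRL cells carry a control hairpin RNA and shSLC6A3 cells a hairpin against SLC6A3, the dopamine transporter gene, in a genotype given as WT. DMSO is the solvent, and VXN is an agent that the labels do not spell out. Dose, time and clone are not given, and neither is whether replicates were separate cultures. Since the sets were picked from the outcome, every difference between them is a description with no test and no p-value, and none can be assigned to a hairpin or to the agent. In what follows a library is called by its label and replicate number. Levels in the trio are listed in the order shCTRL DMSO 3, shSLC6A3 DMSO 1, shCTRL VXN 3, and levels in the pair in the order shSLC6A3 DMSO 2, shSLC6A3 DMSO 3.

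Most of the genes described below belong to a few programmes. When sterol in the endoplasmic reticulum is low, the SREBP transcription factors are released by proteolysis and switch on the enzymes of cholesterol and fatty acid synthesis, and INSIG1 and other SREBP targets feed back on that release. Genes for S phase are driven by E2F factors held in check by the RB family, and genes for mitosis by the DREAM and MMB complexes that bind the cell cycle homology region. NRF2, ATF4 and NF-kB switch on genes for oxidative stress, for amino acid or endoplasmic reticulum stress, and for inflammation. FOS and EGR1 belong to the immediate early genes, which answer growth factor signals within minutes.

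The sets were checked against the labels and the cell type. SLC6A3 was at 0.0475, 0.0646 and 0.042 CPM (counts per 1000000 counts) in the trio and 0.0166 and 0 in the pair, near 0 in libraries with either hairpin, so its level could not check the labels. The epithelial markers EPCAM, KRT8 and KRT18 were abundant in all 5 libraries, with EPCAM between 326 and 399 CPM. VIL1, a microvillus gene of the gut, was at 0.063 CPM or less in them. Summed over 18 epithelial markers the trio held 6334 to 6443 CPM and the pair 5336 to 5373 CPM. Markers of other cells were low: 10 of 20 mesenchymal markers and 10 of 12 leukocyte and endothelial markers stayed under 1 CPM in all 5 libraries, and 3 mesenchymal markers were at 0. The summed mesenchymal level was nonetheless 218 to 240 CPM in the trio, 159 to 162 CPM in the pair and 265 CPM in shCTRL VXN 2, and the summed leukocyte and endothelial level was 5.29 to 5.46, 4.72 to 4.76 and 9.54 CPM, and their part in the results was not tested. Total counts ran from 42122198 to 47585115 in the trio and were 60215785 and 52982067 in the pair, within 30251364 to 60215785 over all 9 libraries.

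Agreement within each set was close for libraries with different labels. For shCTRL DMSO 3 and shSLC6A3 DMSO 1, whose titles name different hairpins, the chi-square per degree of freedom of their counts was 1.38, where 1 is pure counting noise. It was 1.53 for the pair libraries, which share a label. The library labelled shCTRL VXN 3 stood at 16.2 and 16.6 from the other members of the trio, and shCTRL DMSO 3 stood at 372 from shSLC6A3 DMSO 2. A DESeq2 fit of all 9 libraries was set beside the authors' deposited table named for VXN against DMSO. It compared the trio with the pair plus shCTRL VXN 2, with the remaining libraries as a further group. Its p-values met those of 38907 of 38907 rows, genes and repeats together, within 0.001. With shCTRL VXN 2 moved to that further group, and the trio compared with the pair alone, 9714 of 38907 were met. The control group that met the table was therefore the one with the library left out here.

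Promoter sequences show which control elements lie before the genes that set the sets apart. Shown are 250 bases before a RefSeq transcript start on GRCh38.p14, 5′ to 3′ on the gene's own strand, with the named motif in capitals wherever it or its reverse complement occurs. Of 693 named or listed genes, 520 had a RefSeq promoter in the table used here. The search used 7 sets of letters on both strands: CCAAT for the CCAAT box bound by NF-Y, TCACNCCAC for the sterol regulatory element, TTTGAA for the cell cycle homology region, TTTNNCGC for an E2F site, TGATGNAA for a composite site of C/EBP and ATF factors, TGACNNNGC for the antioxidant response element and TGACTCA for an AP-1 site. The last 2 can match the same bases.

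INSIG1 and MSMO1 had 2 of the 3 largest differences among sterol genes, and their windows hold CCAAT boxes, at chr7:155297628-155297877 on the plus strand and chr4:165327419-165327668 on the plus strand. SREBF2, which encodes the SREBP-2 factor itself, was the sterol gene whose window held the sterol regulatory element, at chr22:41832855-41833104 on the plus strand.
INSIG1: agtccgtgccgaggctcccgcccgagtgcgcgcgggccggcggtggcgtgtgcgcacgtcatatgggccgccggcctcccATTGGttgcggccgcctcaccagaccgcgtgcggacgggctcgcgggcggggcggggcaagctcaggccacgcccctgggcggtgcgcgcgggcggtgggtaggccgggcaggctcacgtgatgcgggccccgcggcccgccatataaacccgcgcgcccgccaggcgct
MSMO1: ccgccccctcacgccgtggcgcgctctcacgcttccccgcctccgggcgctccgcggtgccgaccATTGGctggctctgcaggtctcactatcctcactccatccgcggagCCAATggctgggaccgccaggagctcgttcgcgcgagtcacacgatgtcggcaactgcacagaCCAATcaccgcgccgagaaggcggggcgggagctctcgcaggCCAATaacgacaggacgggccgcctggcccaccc
SREBF2: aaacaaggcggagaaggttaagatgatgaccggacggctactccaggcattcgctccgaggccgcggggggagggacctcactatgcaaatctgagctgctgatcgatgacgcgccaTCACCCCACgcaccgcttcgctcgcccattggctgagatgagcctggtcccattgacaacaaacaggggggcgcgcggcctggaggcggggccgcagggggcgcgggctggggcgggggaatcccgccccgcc

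MKI67, BUB1B and ANLN had the largest differences among mitosis genes that were eligible for display (see the replication genes below) and had the cell cycle homology region. In these genes it sits close to the start. The windows lie at chr10:128126424-128126673 on the minus strand, chr15:40160819-40161068 on the plus strand and chr7:36389612-36389861 on the plus strand. In MKI67 the matches begin 47 and 29 bases before the start, in BUB1B 23 bases and in ANLN 26 and 20 bases, where the matches lie end to end in opposite orientation.
MKI67: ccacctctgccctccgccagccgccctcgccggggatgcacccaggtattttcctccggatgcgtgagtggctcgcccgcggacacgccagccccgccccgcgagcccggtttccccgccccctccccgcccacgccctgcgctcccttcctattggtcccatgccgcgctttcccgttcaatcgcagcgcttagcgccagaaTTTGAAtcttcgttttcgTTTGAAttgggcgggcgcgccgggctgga
BUB1B: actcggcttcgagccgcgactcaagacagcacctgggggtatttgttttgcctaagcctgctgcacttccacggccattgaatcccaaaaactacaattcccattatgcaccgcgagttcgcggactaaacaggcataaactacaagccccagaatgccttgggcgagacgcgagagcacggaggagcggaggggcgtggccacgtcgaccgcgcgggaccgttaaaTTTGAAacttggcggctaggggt
ANLN: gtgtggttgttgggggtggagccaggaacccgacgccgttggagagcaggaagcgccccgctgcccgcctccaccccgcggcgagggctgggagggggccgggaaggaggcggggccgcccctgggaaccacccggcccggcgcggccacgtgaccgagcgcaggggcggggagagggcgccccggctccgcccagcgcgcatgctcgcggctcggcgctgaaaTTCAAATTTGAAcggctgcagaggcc

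Genes in a part of the genome that was left out of the display were not eligible, whatever their motif or difference. Among the eligible replication genes with an E2F site, GINS2, DTL and POLE2 had the largest differences. Windows of these 3 genes lie at chr16:85688955-85689204 on the minus strand, chr1:212035498-212035747 on the plus strand and chr14:49688215-49688464 on the minus strand. Their matches begin 31, 8 and 81 bases before the start.
GINS2: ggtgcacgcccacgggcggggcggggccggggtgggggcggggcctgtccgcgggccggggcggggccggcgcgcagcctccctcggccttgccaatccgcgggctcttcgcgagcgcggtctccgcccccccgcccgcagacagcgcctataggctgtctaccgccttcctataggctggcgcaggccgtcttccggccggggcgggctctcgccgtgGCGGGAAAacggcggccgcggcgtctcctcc
DTL: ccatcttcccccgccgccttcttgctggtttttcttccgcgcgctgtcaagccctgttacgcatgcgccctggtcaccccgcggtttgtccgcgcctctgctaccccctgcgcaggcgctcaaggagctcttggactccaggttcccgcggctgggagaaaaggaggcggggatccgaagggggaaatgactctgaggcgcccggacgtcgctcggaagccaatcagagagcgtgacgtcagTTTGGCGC
POLE2: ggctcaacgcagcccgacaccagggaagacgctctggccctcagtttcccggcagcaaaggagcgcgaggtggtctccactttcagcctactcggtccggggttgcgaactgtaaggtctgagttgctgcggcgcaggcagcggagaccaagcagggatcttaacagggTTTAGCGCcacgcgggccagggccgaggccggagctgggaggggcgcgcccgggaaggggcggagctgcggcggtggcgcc

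Counted over genes with a promoter in the table, TTTGAA occurred in 16 of 25 mitosis genes (64%), against 11.5% of 10132 genes of at least 1 CPM and 16.1% of all 27305 genes with a promoter. TTTNNCGC occurred in 14 of 28 replication genes (50%), against 11.5% and 7.15%. CCAAT occurred in 16 of 18 sterol genes (88.9%), against 41.8% and 37%, and also in 20 of 25 mitosis genes (80%). The sterol regulatory element was found in 1 of 18 sterol genes (5.56%), against 1.16% and 1.09%, in the letters searched. TGACNNNGC occurred in 4 of 14 NRF2 targets (28.6%), against 16% and 13.2%. TGACTCA occurred in 0 of 21 immediate early genes, against 4.03% and 5.19%, and in 8.46% of genes called higher and 2.18% of those called lower. A match is a description of the letters and not a bound site.

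The 4 genes that mark the sets differed by at least 8.23-fold between trio and pair, and the other 4 libraries of the series lay with the pair. HMGCS1, the cytosolic synthase that starts the mevalonate pathway (chr5:43289395-43313512, minus strand), was at 1120.1, 1132 and 915 CPM in the trio and 126 and 125 CPM in the pair. HMOX1, which degrades haem (chr22:35380361-35394214, plus strand), was at 374, 372 and 418 against 26.3 and 27.1 CPM. CXCL8, the neutrophil chemokine interleukin-8 (chr4:73740506-73743716, plus strand), was at 19.97, 20.999 and 18.4 against 0.648 and 0.717 CPM. MKI67, which encodes the proliferation antigen Ki-67 (chr10:128096659-128126385, minus strand), was at 73.05, 71.96 and 60.8 against 564 and 568 CPM. The sets did not overlap for any of the 4, and shCTRL VXN 3 was the lowest of the trio for HMGCS1, CXCL8 and MKI67 and the highest for HMOX1. On the log2(CPM + 0.5) scale the trio minus pair differences were 3.06, 3.83, 4.10 and -3.04, which are folds of 8.34, 14.3 and 17.2 upward and 8.23 downward. The pseudocount of 0.5 CPM understates the change of low genes such as CXCL8. Between the libraries the choice had a wide gap: the lowest trio library held 915 CPM of HMGCS1 and the highest of the other 6 held 186 CPM. Coordinates are those of GENCODE v29 on GRCh38, which may not be the authors' annotation. In bulk RNA, fewer cells with a transcript and less of it per cell cannot be told apart.

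**Figure D1:**
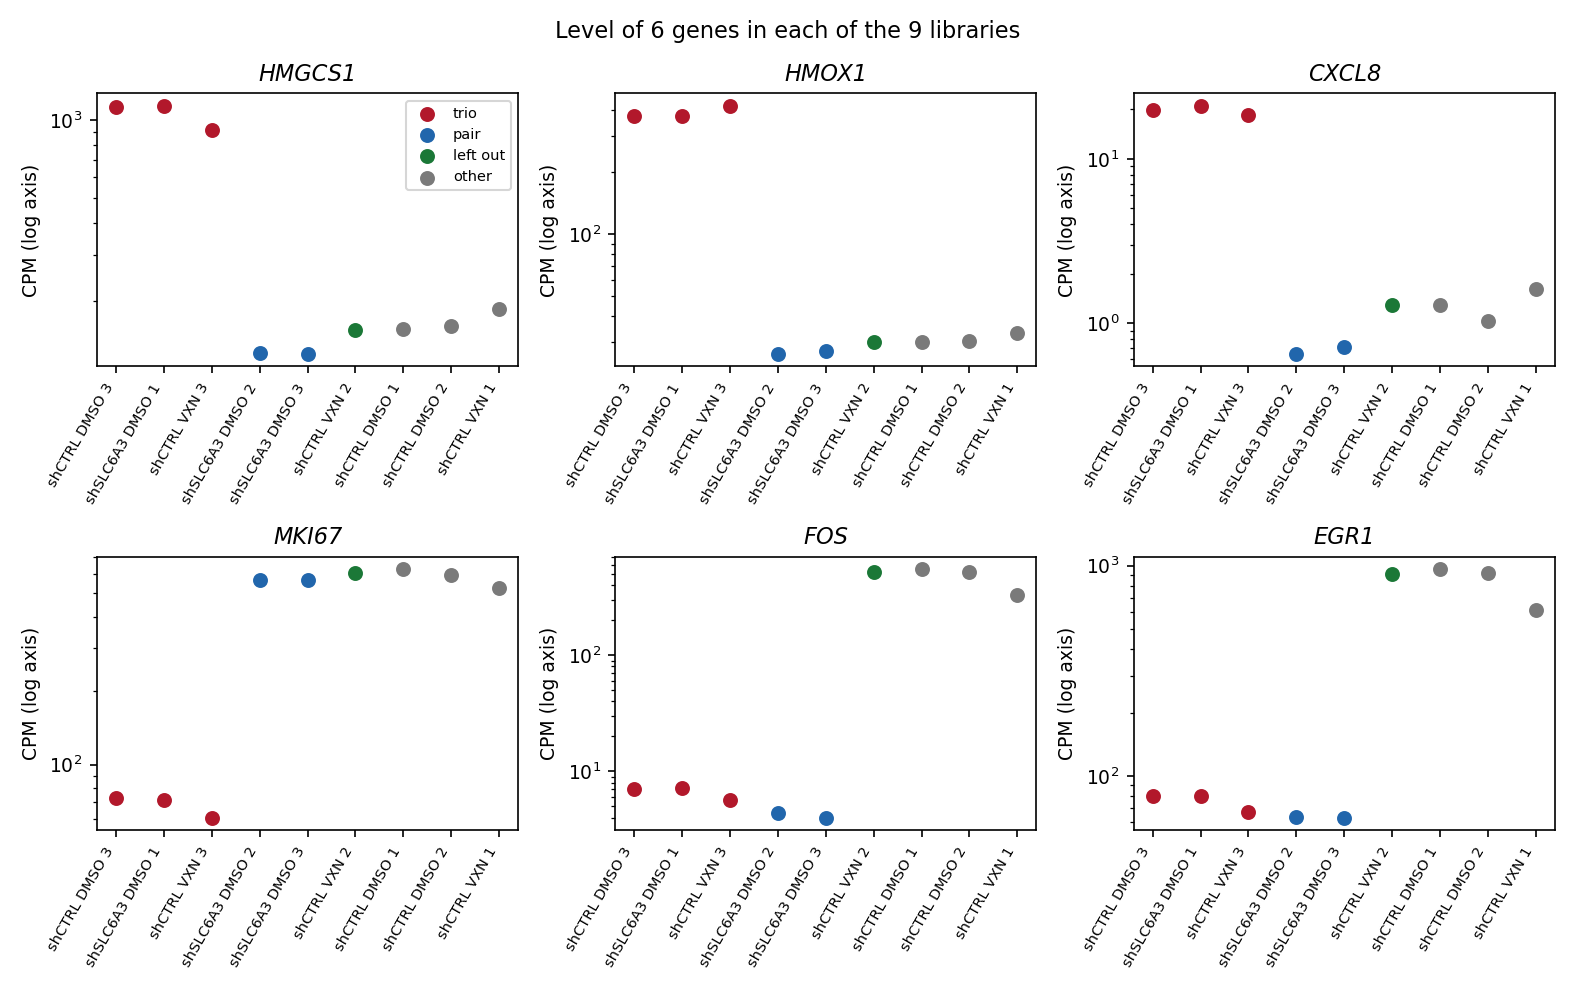
Level of 6 genes in each of the 9 libraries, as CPM on a log axis with one scale per gene, with 1 point per library coloured by set. HMGCS1, HMOX1 and CXCL8 are high and MKI67 low in the trio alone, while FOS and EGR1 are low in both the trio and the pair and high in the other 4 libraries.

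FOS separates the pair from the remaining libraries and not from the trio. Since the pair was chosen for low FOS, its separation from those libraries follows in part from the choice. FOS was at 7.098, 7.22 and 5.67 CPM in the trio and 4.35 and 4.001 CPM in the pair, against 331 to 548 CPM in the other 4 libraries. EGR1 was at 80.5, 80.4 and 67.1 CPM in the trio and 63.5 and 63.3 CPM in the pair, against 612 to 959.8 CPM in those 4. Both sets of this contrast were therefore low in these genes, with a FOS difference of 0.61 and an EGR1 difference of 0.25 between them, and a contrast of the trio with the pair alone does not carry the FOS difference that shCTRL VXN 2 brings in.

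Across the genome 14496 genes had a mean of at least 1 CPM over the 5 libraries, and 46155 gene rows fell below that. A gene is called higher or lower here when its mean log2 difference is at least 1 (2-fold) and no trio library overlaps a pair library. By that rule 845 genes (5.83%) were higher in the trio and 1045 (7.21%) lower, and none of them had 0 counts throughout its lower set. At least 4-fold differences were more often downward, with 249 lower and 126 higher genes. Of the higher genes 646 were protein coding and 131 long noncoding RNAs, and of the lower genes 978 and 27. Without a size limit, 12162 genes (83.9%) had sets that did not overlap, 6123 with the trio above and 6039 with it below, so a lack of overlap alone says little here. The median difference of all genes was 0.01. Just inside the limit was SLC35E2B at 1.0008 and just outside it CLDN4 at 0.9998, and on the low side HADH at -1.0012 and NUDC at -0.9989. In the genes called, 178 higher and 77 lower ones had a mean under 1 CPM in the set where they were low.

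**Figure D2:**
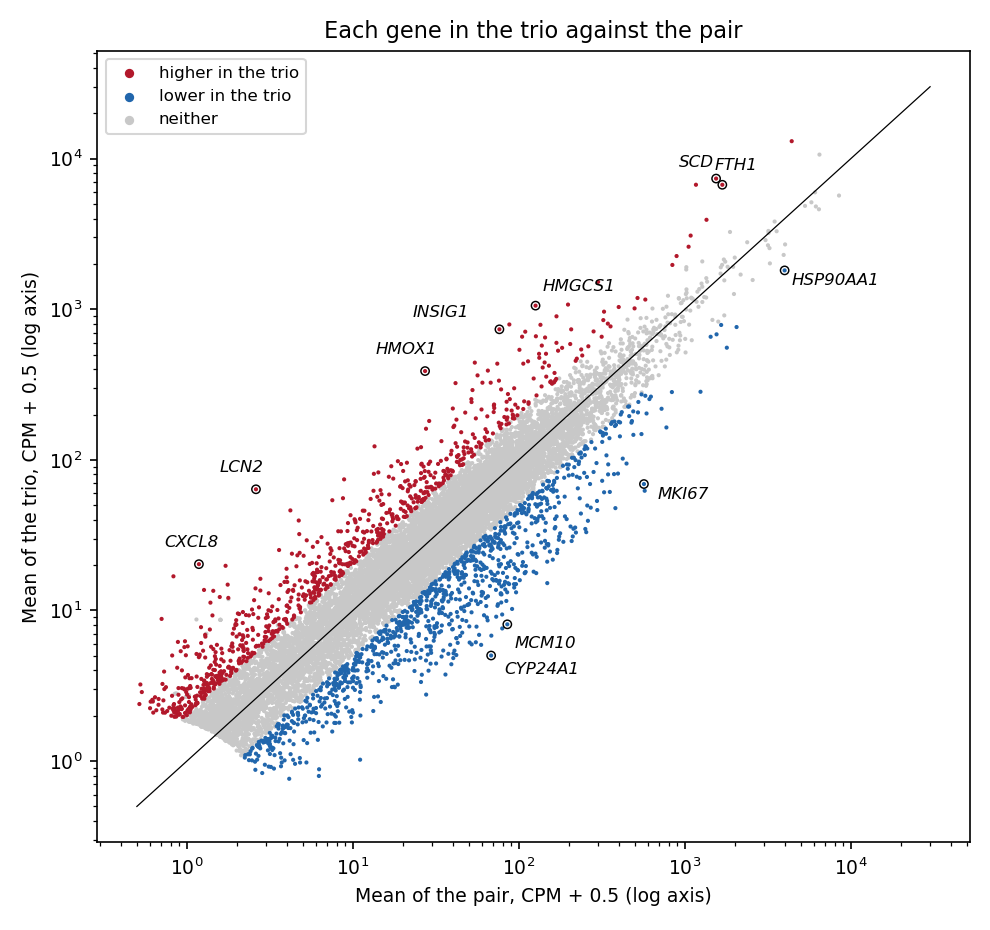
Mean of the trio against mean of the pair for each of the 14496 genes, as CPM + 0.5 on log axes, with genes called higher in red and lower in blue and the diagonal marking equal levels. LCN2 and CXCL8 lie far above the diagonal at low levels, SCD and FTH1 above it at high levels, and MKI67, MCM10 and CYP24A1 below it.

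The highest differences among genes with a mean of at least 10 CPM joined the marker genes to iron binding, sterol and histone genes. LCN2, which encodes the iron-siderophore binding protein lipocalin 2, led with 71.2, 69.7 and 48.9 CPM in the trio and 2.16 and 2.06 CPM in the pair, a difference of 4.59. LCN2 also differed inside the trio, where shCTRL VXN 3 was the lowest. TSC22D3, a glucocorticoid-induced leucine zipper gene, was at 115, 119 and 133 against 13.3 and 12.8 CPM. LIPG, the endothelial lipase gene, was at 39.3, 38.9 and 38.96 against 4.12 and 4.32 CPM, and C6orf223 at 77.2, 74.5 and 69.4 against 8.204 and 8.51 CPM. For these 3 genes the trio libraries lay close together and did not overlap with the pair. The clustered histone genes H2AC6 and H3C6 differed by 3.46 and 3.53, which is uncertain because these genes have near-identical copies.

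At the other end the 12 lowest differences were in genes of DNA replication, repair and transcription factors, joined by a vitamin D gene and a neuronal one. CYP24A1, the vitamin D 24-hydroxylase gene, was at 4.06, 3.98 and 5.53 CPM in the trio and 68.3 and 66.9 CPM in the pair, a difference of -3.77, and was higher still, at 117 to 134 CPM, in the other 4 libraries. DSCC1, a subunit of the clamp loader for sister chromatid cohesion, was at 7.81, 8.36 and 5.13 against 78.1 and 79.7 CPM. MYBL2, which encodes the B-Myb factor of the MMB complex, was at 17.2, 15.9 and 10.9 against 148 and 148 CPM. ZNF367 and NRGN, the neurogranin gene, differed by -3.25 and -3.33. In each of these genes except CYP24A1 the library labelled shCTRL VXN 3 was the lowest of the trio.

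Sterol genes had the highest share of higher calls among the 31 lists, where 5.83% of all genes were higher and 7.21% lower. HMGCS1, on which the libraries were chosen, is itself a sterol synthesis gene, so this rank follows in part from the choice. Of 25 listed genes for sterol synthesis and uptake, all at 1 CPM or more, 24 were higher in the trio and none lower, with a median difference of 2.39 beside 0.01 for all genes. INSIG1, which holds the SREBP complex in the endoplasmic reticulum when sterol is plentiful, was at 699, 700.04 and 806 CPM in the trio and 76.7 and 75.04 CPM in the pair. MSMO1, which removes a methyl group from lanosterol derivatives, was at 790.3, 789 and 796 against 88.7 and 85.6 CPM. SQLE, the squalene epoxidase gene, differed by 2.03. In both INSIG1 and MSMO1 the pair libraries lay close together, with all trio libraries far above them. The smallest of the 24 was SREBF2, with 523, 527 and 570.2 against 235 and 239 CPM and a difference of 1.19. PMVK, the phosphomevalonate kinase gene, was the gene not called, with a difference of -0.07.

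Fatty acid genes moved in part and sterol export genes hardly, beside 5.83% higher and 7.21% lower of all genes. Of 17 genes for fatty acid synthesis and desaturation, 16 were measured at 1 CPM or more and 8 of them were higher, none lower, with a median of 1.153. ACSS2, which makes acetyl-CoA from acetate, was at 413, 413 and 499 CPM in the trio and 53.6 and 53.9 CPM in the pair. LPIN1, the phosphatidate phosphatase lipin 1, was at 171, 168 and 202 against 28.7 and 27.97 CPM. SCD, the stearoyl-CoA desaturase, was at 7082, 7101 and 7927 against 1539 and 1545 CPM, and ELOVL6, an elongase, at 295, 301 and 299 against 92.4 and 93.99 CPM. In ACSS2, LPIN1 and SCD, shCTRL VXN 3 was the highest library of the trio. SREBF1, which encodes SREBP-1, had a difference of 0.57 and was not called, nor was ACACA, the acetyl-CoA carboxylase gene, at 0.64. Among 12 genes of sterol efflux and of the LXR receptors, 9 were measured and only NPC1, the late endosomal cholesterol exporter, was higher, at 221, 223 and 254 against 69.6 and 71.2 CPM. The list median was 0.09.

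Oxidative stress and metal genes were higher in the trio with some exceptions, where 5.83% of all genes were higher and 7.21% lower. Of 18 measured NRF2 targets (20 listed), 12 were higher and none lower, with a median of 1.32. ABCC3, an organic anion exporter, was at 162, 156 and 163 CPM in the trio and 27.1 and 27.1 CPM in the pair. OSGIN1 was at 74.3, 73.7 and 82.1 against 15.4 and 16.6 CPM, and FTH1, the ferritin heavy chain, at 6576, 6579 and 6949 against 1683 and 1678 CPM, with the caveat that ferritin genes have many processed copies. NQO1, a commonly used NRF2 target, had a difference of 0.76 and was not called, and TALDO1, of the pentose phosphate pathway, one of -0.67. Of 11 measured genes for metallothioneins and metal handling (15 listed), 5 were higher and 1 lower. The lower gene was the zinc importer SLC39A10, at 35.3, 35.4 and 39.9 against 86.1 and 85.3 CPM. TFRC, the transferrin receptor for iron uptake, had a difference of -0.02.

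Genes of the integrated stress response were higher in part, beside 5.83% higher and 7.21% lower of all genes. Of 30 measured genes (32 listed), 13 were higher and none lower, with a median of 0.93. GDF15, a secreted stress cytokine, was at 716, 722 and 925 CPM in the trio and 137 and 131 CPM in the pair. ATF3, a stress-induced transcription factor, was at 95.4, 93.8 and 96.4 against 21.3 and 20.03 CPM. SESN2, a leucine sensor that restrains mTORC1, was at 173, 172 and 160.2 against 39.3 and 41.4 CPM. In these 3 genes the sets did not overlap, and shCTRL VXN 3 stood above the other trio libraries in GDF15. CHAC1, which degrades glutathione, was at 134, 135 and 129 against 33.7 and 33.6 CPM. The 17 genes not called ranged from -0.04 for SHMT2 to 0.94 for ALDH1L2, both of mitochondrial one-carbon metabolism. Among the tRNA synthetase genes of the list WARS1 was called higher at 1.05, while CARS1, GARS1, AARS1 and NARS1 had differences of 0.56, 0.47, 0.11 and 0.11. Of the serine synthesis genes, PSPH, PSAT1 and PHGDH had differences of 0.58, 0.23 and 0.11, and ASNS, the asparagine synthetase gene, one of 0.42. ATF4 itself and its partner CEBPG had differences of 0.42 and 0.93 and were not called. The letters TGATGNAA occurred on either strand in 7 of 27 promoters of the list (25.9%), against 2.21% of genes of at least 1 CPM and 3.89% of all genes with a promoter.

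Genes of the endoplasmic reticulum and the lysosome were mixed, where 5.83% of all genes were higher and 7.21% lower. Of 20 genes for folding and degradation in the endoplasmic reticulum, 8 were higher and 1 lower, with a median of 0.41. HSPA5, the main chaperone BiP, was at 3123, 3129 and 2994 CPM in the trio and 1087 and 1079 CPM in the pair, and DNAJB9, its cochaperone, at 66.02, 65.5 and 66.03 against 18.5 and 19.01 CPM. Other chaperones of the compartment were not called, among them HSP90B1 at -0.12 and CALR at -0.40, and SDF2L1 was lower at -1.13. Of 26 lysosome and autophagy genes 9 were higher and none lower, with a median of 0.30. SQSTM1, the autophagy receptor p62, was at 1504, 1514 and 1537 against 297 and 303 CPM. WIPI1, an early autophagosome protein, was at 94.1, 91.6 and 94.1 against 19.5 and 18.6 CPM, and MAP1LC3B, the autophagosome marker LC3B, at 458, 459 and 434 against 114 and 112 CPM. CTSB, which encodes the lysosomal protease cathepsin B, had a difference of -0.61 and was not called. Of the 9 higher genes 5 act in autophagosome formation or on its cargo, adding GABARAPL1 and ULK1 to the 3 above.

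NF-kB and p53 targets were higher in part, beside 5.83% higher and 7.21% lower of all genes. Of 15 measured NF-kB targets and chemokines (20 listed), 7 were higher and none lower, with a median of 0.92, but 5 of the 15 passed the level filter through one set only. RELB was at 28.1, 27.8 and 29.7 CPM in the trio and 11.97 and 12.004 CPM in the pair, and NFKBIA, the inhibitor of NF-kB, at 47.9, 45.5 and 48.6 against 22.6 and 24.1 CPM, just past 2-fold. TNFAIP3 and NFKB1 were not called, at 0.03 and -0.28. Among 22 p53 targets, 6 were higher and none lower, with a median of 0.58. CDKN1A, which encodes the cyclin-dependent kinase inhibitor p21, was at 513, 506 and 571 against 170.04 and 173 CPM, and TP53INP1 at 117, 115 and 131 against 25.1 and 25.3 CPM. MDM2 and BAX, both direct p53 targets, had differences of 0.46 and 0.18. Of 23 measured genes of the BCL2 family and death receptors, 2 were higher and 1 lower, near the shares of all genes. The higher ones were TNFRSF10B, the TRAIL receptor DR5, at 599, 594 and 599 against 169.6 and 166 CPM, and BBC3, which encodes the killer protein PUMA, at 61.96, 61.2 and 70.1 against 18.5 and 20.4 CPM. BCL2 was the lower one, at -1.12.

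Genes of the cell cycle were low in the trio across S phase and mitosis, beside 7.21% lower and 5.83% higher of all genes. MKI67, on which the libraries were also chosen, is in the mitosis list, so low levels of cell cycle genes follow in part from the choice. All 31 genes of the DNA replication list were lower, with a median of -2.62, and all 30 of the mitosis list, with a median of -2.43. MCM10, which activates the replicative helicase, was at 8.95, 8.68 and 5.15 CPM in the trio and 84.9 and 84.5 CPM in the pair. GINS2, a subunit of that helicase, was at 6.88, 8.31 and 3.72 against 69.5 and 66.1 CPM, and RRM2, a ribonucleotide reductase subunit, at 69.7, 72.04 and 43.8 against 572 and 572 CPM. In all 3 replication genes shCTRL VXN 3 was the lowest library. CDK1, the mitotic kinase, was at 23.9, 26.1 and 20.7 against 172 and 167 CPM. BUB1B, of the spindle checkpoint, was at 24.2, 21.7 and 17.8 against 161 and 158 CPM, and ANLN, which builds the cleavage furrow, at 37.5, 36.6 and 28.7 against 249.6 and 252 CPM. In each of these genes the highest trio library lay far below the lowest pair library. RNA levels alone do not give the share of cells in a phase, so neither arrest nor cycling was measured.

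Repair and E2F genes followed with exceptions, beside 7.21% lower and 5.83% higher of all genes. Of 21 genes of homologous recombination and the Fanconi pathway, 20 were lower, with a median of -2.34. EXO1, a resection nuclease, was at 5.86, 6.63 and 3.74 CPM in the trio and 58.7 and 58.9 CPM in the pair, and BRIP1, a helicase partner of BRCA1, at 5.91, 6.83 and 4.14 against 51.5 and 48.5 CPM. Among 24 measured genes of the E2F and RB families, cyclins and their inhibitors (25 listed), 11 were lower and 1 higher. The activators E2F1 and E2F2 were at 8.404, 7.32 and 6.28 against 49.3 and 50.3 CPM and 3.798, 3.53 and 2.44 against 35.3 and 35.96 CPM. RB1, E2F4 and CCND1 differed by -0.40, -0.38 and 0.15 and were not called. The higher gene was CDKN2B, which encodes the kinase inhibitor p15, at 74.9, 72.02 and 99.2 against 14.1 and 13.4 CPM, while CDKN1B, for the inhibitor p27, differed by 0.19.

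Part of the chromatin, nucleolar and chaperone genes were called lower too, beside 7.21% of all genes. Of 25 genes for H3K9 methylation, DNA methylation and silencing, 5 were lower and none higher, with a median of -0.41. They were HELLS, UHRF1, DNMT1, SUV39H1 and SUV39H2. HELLS, a chromatin remodeller, was at 9.71, 9.22 and 6.85 CPM in the trio and 75.1 and 69.9 CPM in the pair, and DNMT1, the maintenance DNA methyltransferase, at 102, 105 and 112 against 333 and 339.8 CPM. SETDB1 and DNMT3A, which methylate H3K9 and unmethylated DNA, had differences of 0.22 and 0.20. Among 26 genes for ribosome assembly in the nucleolus 3 were lower, with a list median of -0.72, and BOP1, of the large subunit pathway, was at 71.7, 77.4 and 77.02 against 230.3 and 234 CPM. The 30 cytosolic ribosomal protein genes had no call and a median of 0.07. Of 14 measured heat shock genes 5 were lower, including HSPE1, a mitochondrial chaperonin, at 59.3, 57.6 and 51.9 against 171 and 170.3 CPM and HSP90AA1 at 1849.6, 1856 and 1725 against 3989 and 3988 CPM, families whose copies can share reads.

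Most genes of the WNT, hypoxia, energy and interferon lists were not called, beside 5.83% higher and 7.21% lower of all genes. The called shares of the WNT, hypoxia and interferon lists were nonetheless above those of all genes in at least 1 direction. Of 19 measured WNT targets and stem cell markers 4 were lower, among them DKK1, a secreted WNT inhibitor, at 28.2, 28.5 and 28.6 CPM in the trio and 209 and 206 CPM in the pair, and MYB at -3.45. AXIN2, a direct WNT target, differed by -0.11. In the hypoxia and glycolysis list 4 of 27 were higher and 2 lower: VEGFA, the endothelial growth factor, was at 325, 326 and 355 against 74.7 and 76.01 CPM, while LDHA, lactate dehydrogenase, was at 283, 279.5 and 282 against 835 and 835 CPM. The list median was -0.19. With shCTRL VXN 2 added to the pair the list had 2 higher and 3 lower genes and a median of -0.54. Nuclear respiratory chain genes had 1 lower gene of 26, CYC1, and a median of -0.59, and the 13 mitochondrially encoded genes no call and a median of -0.18. Interferon-stimulated genes had 4 higher and 3 lower of 20, with a median of -0.03, led by ISG20 at 2.05 and OAS3 at -1.92. HBEGF and BTC, ligands of the EGF receptor family, were higher at 1.49 and 1.21, and EGFR differed by -0.21. Among 16 measured epithelial markers CDH1, ESRP1 and ELF3 were higher, with CDH1, the E-cadherin gene, at 214, 207 and 229 against 105 and 106 CPM. Among 9 measured mesenchymal markers COL6A3 was higher at 1.41 and FN1, fibronectin, lower at -1.15. The monoamine list, to which SLC6A3 belongs, had 3 measured genes and no call.

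**Figure D3:**
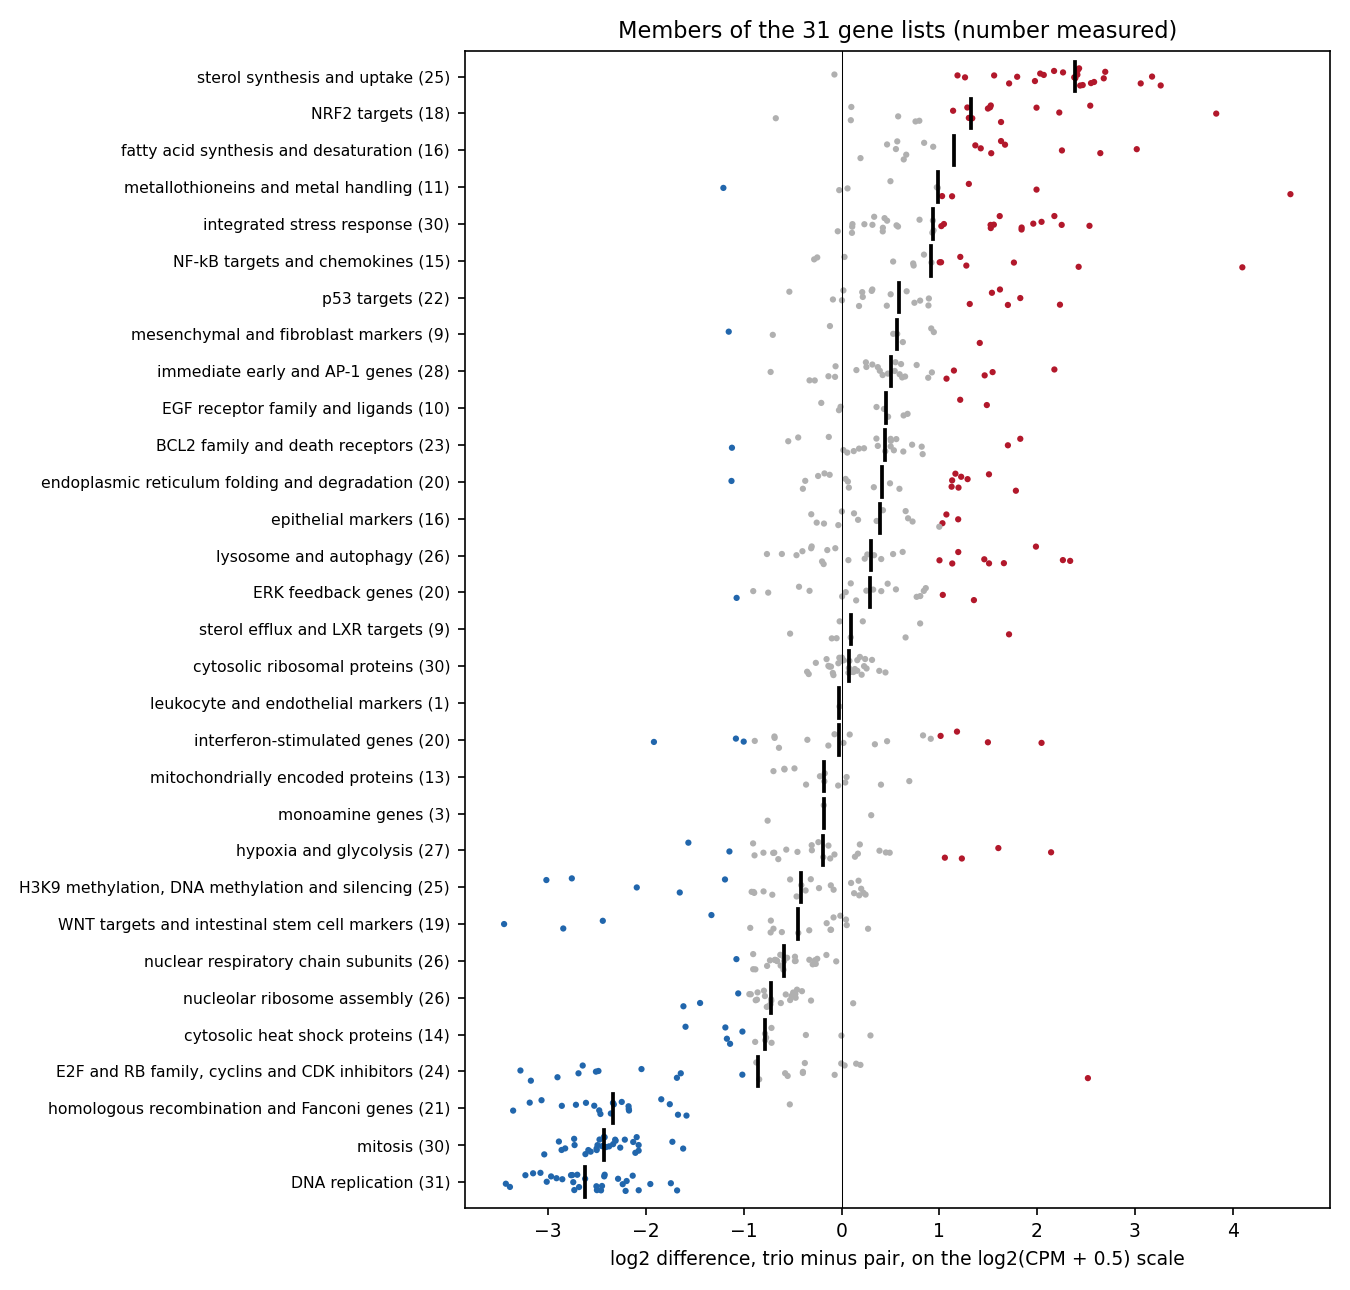
Log2 difference of trio minus pair for each measured member of 31 gene lists, 1 point per gene, red where called higher and blue where called lower, with a black bar at the list median and the number of measured genes in brackets. Sterol genes lie furthest right at a median of 2.39, and replication, mitosis and recombination genes furthest left at -2.62, -2.43 and -2.34. The libraries were chosen on HMGCS1, a sterol synthesis gene, and MKI67, of the mitosis list, so these positions follow in part from the choice.

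The other 4 libraries of the series show which of the sets stands apart for a given gene. Each was placed by whether its log2 level was nearer the mean of the pair or of the trio. Of the 845 higher genes, 654 (77.4%) had all 4 nearer the pair, 92 (10.9%) all 4 nearer the trio, and 99 (11.7%) were divided. Of the 1045 lower genes, 1016 (97.2%) had all 4 nearer the pair and 6 (0.574%) all 4 nearer the trio. For most called genes, then, it was the trio whose level differed from the rest of the series, and lower genes were placed so in a larger share than higher ones. This placement follows in part from the choice of libraries, since the other 4 also had low HMGCS1 and high MKI67 like the pair.

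**Figure D4:**
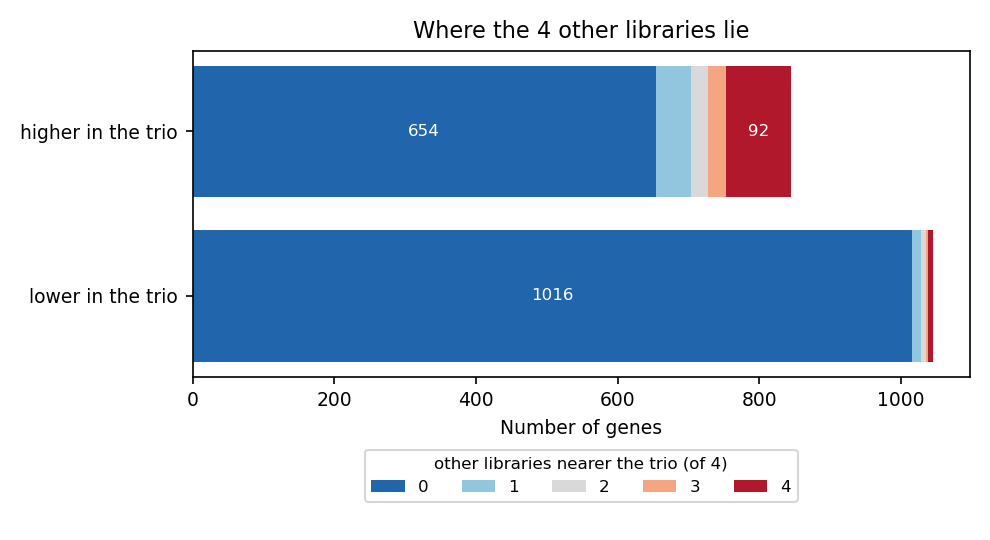
Number of genes by how many of the 4 other libraries lay nearer the trio than the pair, for genes called higher and lower in the trio, as stacked bars. The lower genes are almost all at 0 of 4, with 1016 of 1045, while 92 of 845 higher genes have all 4 libraries on the trio's side.

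In the 92 higher genes with the other 4 libraries on the trio's side, it was the pair that lay apart. JUN, which encodes a partner of FOS in the AP-1 factor, was at 76.8, 71.5 and 74.5 CPM in the trio, 24.7 and 25.5 CPM in the pair and 97.6 to 152 CPM in the other 4 libraries. KLF2, a Krüppel-like factor, was at 82.6, 83.7 and 82.4 CPM in the trio, 36.8 and 37.4 CPM in the pair and 68.3 to 92.5 CPM in the others. ELF3, an epithelial factor, was at 91.2, 90.6 and 108 CPM in the trio, 41.8 and 41.8 CPM in the pair and 106 to 129 CPM in the others. ATF3 and NDRG1 were of the same kind, with 52.9 to 82.9 and 336 to 592 CPM in the other 4 libraries. Of 5 immediate early genes called higher in the trio 4 were placed in this way. The pair was chosen for the lowest FOS, itself an immediate early gene, so this placement follows in part from the choice. Among the lower genes HSPH1, a heat shock chaperone, was at 170.3, 169.98 and 169.9 CPM in the trio, 384 and 384 CPM in the pair and 225 to 243 CPM in the others.

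Some genes formed 3 levels. In 167 higher genes all 4 other libraries lay below both pair libraries, in 13 of them by 2-fold or more. SLC7A11, the cystine importer, was at 587, 587 and 587 CPM in the trio, 205 and 202 CPM in the pair and 63.6 to 80.9 CPM in the other 4. UPP1, uridine phosphorylase, was at 163, 158 and 136 CPM in the trio, 45.6 and 43.3 CPM in the pair and 9.798 to 10.9 CPM in the other 4. NRP1, a coreceptor for VEGF, was at 87.1, 85.1 and 98.4 CPM, 16.5 and 16.6 CPM and 4.12 to 4.89 CPM in the same order of sets. In these genes the pair was intermediate. Likewise 313 lower genes had all 4 other libraries above both pair libraries, 31 of them by 2-fold or more, with FN1 at 5.13, 5.04 and 5.84 CPM in the trio, 13.4 and 11.6 CPM in the pair and 29.7 to 37.3 CPM in the other 4.

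Calls for part of the genes depended on leaving shCTRL VXN 2 out. With it added to the pair, 714 of 14578 genes (4.9%) were higher and 1134 (7.78%) lower. Both ways 658 genes were higher and 968 lower, and no gene changed direction. A further 187 genes were higher with the pair alone and 56 with the third library, and 77 were lower with the pair alone and 166 with the third library. Of the 1134 lower genes, 1097 were among the 14496 that passed the level filter with the pair alone. The rest had not passed it, so part of the 166 reflects the filter. In 36 of the 187, shCTRL VXN 2 lay above the lowest trio library.

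The library shCTRL VXN 2 departed from the pair mean by 2-fold or more upward in 286 genes and downward in 58. FOS was at 524 CPM in shCTRL VXN 2 and FOSB at 274 CPM against 2.74 and 3.21 CPM in the pair, with log2 differences of 6.81 and 6.30. The pair was chosen for low FOS, so differences in immediate early genes follow in part from the choice. CCN1, a secreted matrix protein, NR4A1, an orphan receptor, and DUSP1, a phosphatase of MAP kinases, differed by 3.92, 3.90 and 3.19. Adding that library turned the FOS difference of the trio from 0.61 to -1.66 and that of EGR1 from 0.25 to -1.02. The median of 28 measured immediate early genes moved from 0.51 to 0.00, with 5 higher genes becoming 2 higher and 1 lower. JUN went from 1.55 to 0.72 and was no longer called. Of the genes below the pair in shCTRL VXN 2, UPP1 differed by -1.98 and PSAT1, of serine synthesis, by -1.50, at 207 CPM against 589 and 587 CPM in the pair. U2AF1 was at 35.05 CPM in shCTRL VXN 2 but 13.02 and 0 CPM in the pair libraries, and has a near-identical copy, so its value is uncertain.

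Sterol, replication and mitosis genes hardly depended on that library. The sterol median was 2.39 with the pair alone and 2.28 with shCTRL VXN 2 added, with 24 and 23 higher genes. The replication median was -2.62 and -2.60 and the mitosis median -2.43 and -2.37, with all 31 and all 30 genes lower both times. These comparisons share 5 of their libraries and are values side by side, not support for each other.

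**Figure D5:**
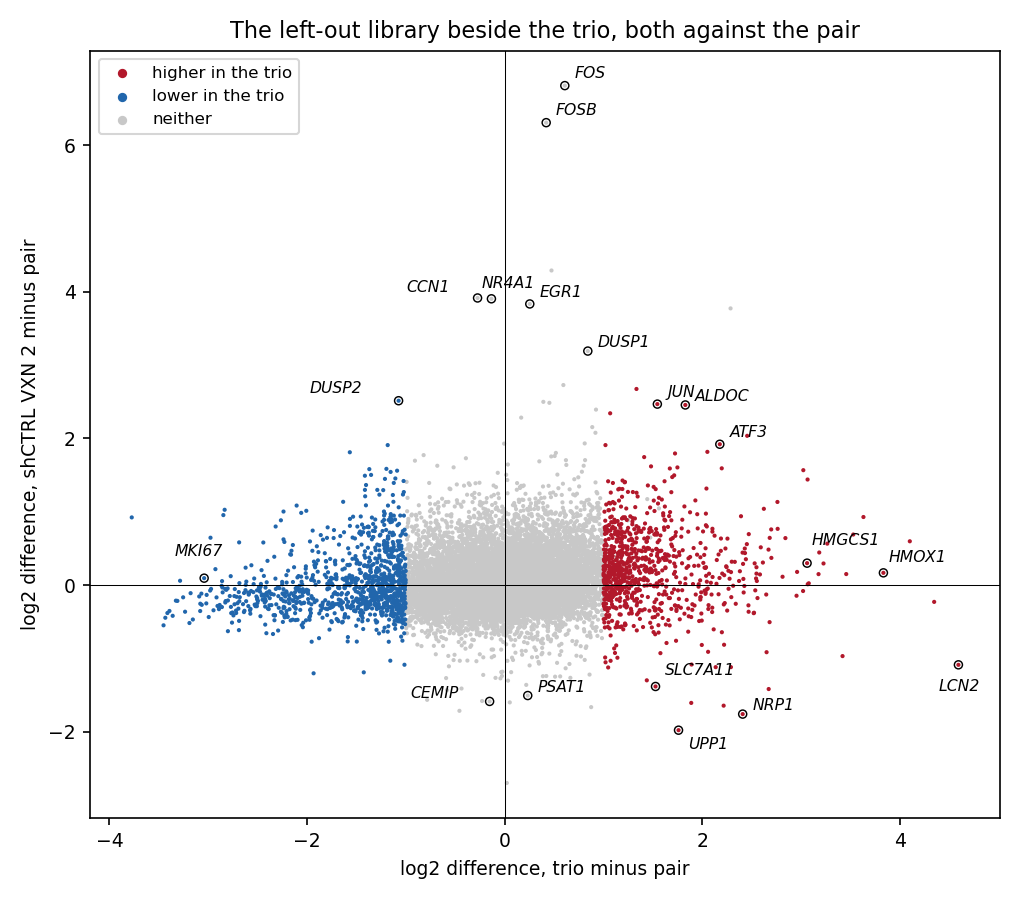
Log2 difference of shCTRL VXN 2 minus the pair against that of trio minus pair, 1 point per gene, red and blue as called for trio against pair. FOS and FOSB reach 6.81 and 6.30 on the vertical axis near 0.61 and 0.42 on the horizontal one, while HMGCS1, HMOX1 and MKI67 lie near 0 vertically and far from 0 horizontally. The libraries were chosen on FOS, HMGCS1 and MKI67, so the positions of these genes follow in part from the choice.

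Inside the trio the library labelled shCTRL VXN 3 differed in degree. Between the pair libraries 2 genes were 2-fold apart, and between shCTRL DMSO 3 and shSLC6A3 DMSO 1 there were 4. From shCTRL VXN 3 these stood 46 and 37 genes apart. It was the lowest of the trio in 29 of 31 replication genes, 30 of 30 mitosis genes and 19 of 21 recombination genes, where over all genes it was the lowest in 43.1% and the highest in 42.2%. Its median difference from the mean of the other members was -0.45 for replication, -0.26 for mitosis and 0.04 for sterol genes. DTL, a substrate receptor of a ubiquitin ligase in S phase, was at 13.3, 12.9 and 6.93 CPM in the trio, and MCM2, of the replicative helicase, at 36.8, 37.2 and 23.9 CPM. RN7SL1, the RNA of the signal recognition particle, was at 0.973, 2.67 and 30.5 CPM, and MT-ND6 on the mitochondrial strand opposite to most genes, at 83.4, 86.3 and 178 CPM. In both shCTRL VXN 3 was the high library, though these libraries do not mark strand and reads of MT-ND6 cannot be told from antisense ones. RN7SL1 belongs to a family of near-identical copies. Opposite to these, CD99 was high in shCTRL DMSO 3 alone, at 28.1, 14.5 and 13.5 CPM. CD99 has 2 entries among the counted genes, which were not compared, so its value is uncertain.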

How the data were processed

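RNA of HCT116 cells was sequenced from TruSeq RNA v2 libraries on a NextSeq 500, per the labels' protocols. This kit does not mark strand, so overlapping antisense genes cannot be told apart. Per the submitters' processing notes, fastp 0.20.1, FastQC 0.11.9, STAR and DESeq2 1.34.0 were used with GRCh38. For the counting program and annotation no source used here gives a name. The authors deposited raw counts of 60651 genes and 1181 repeat subfamilies for 9 samples, along with 2 tables holding log2 fold changes, p-values and adjusted p-values, of which the one named for VXN was used here only to identify its columns and the other was not used. Each also holds a mean signal per gene over libraries, as deposited by the authors, which was not used. In the deposited tables the log2 values and p-values come from the authors' DESeq2 fit, per the labels.

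Levels were computed as counts per 1000000 counts of all rows (CPM), with log2(CPM + 0.5) differences of set means, in Python 3.11.15 (numpy 2.4.6, pandas 2.3.3). A mean of 1 CPM over the 5 libraries was required. Genes were called at 2-fold with no overlap. The rule was tested on simulated data. edgeR 4.0.16 and DESeq2 1.42.0 in R 4.3.3 gave alternative scalings, and DESeq2 the refit of the deposited table. Named genes were the 4 markers, the 12 highest and 12 lowest differences at 10 CPM or more, up to 4 called genes per list at 5 CPM or more, the 10 per direction furthest from the pair in shCTRL VXN 2, the 6 per direction most unlike within the trio, and FOS, EGR1 and SLC6A3; list members that were not called, and examples such as SQLE, SREBF2 or CDKN2B, were chosen after their values were seen. The members and the 31 lists were chosen with earlier results of these data known. Some named items are not reported here.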

Additional observations from a re-analysis of the deposited data

How the results depend on the processing

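No paired analysis was possible because the sets were chosen on measured values and cross the labels, so replicate numbers link no trio library to a pair library and no test was made. With 2 or 3 libraries per set and unknown culture structure, the values describe these libraries only. Leaving out each of the 5 libraries in turn gave 786 to 874 higher and 1030 to 1081 lower genes, log2 differences of 3.01 to 3.16 for HMGCS1, 3.78 to 3.86 for HMOX1, 4.06 to 4.15 for CXCL8 and -3.09 to -2.96 for MKI67, and 3 to 4 lists with a median of at least 1. TMM scaling gave 783 higher and 1117 lower genes, DESeq2 size factors 789 and 1104, a pseudocount of 0.1 gave 1012 and 1149, one of 1 gave 675 and 947, no filter 916 and 1098, a mean of at least 5 CPM 572 and 838, and 2-fold alone 856 and 1046. Scaling moved the median of all genes by 0.03 or less.

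CXCL8, a low gene in the pair, was at 3.90 with shCTRL VXN 2 added, 4.67 with a pseudocount of 0.1 and 3.63 with one of 1. Genes with all other libraries nearer the trio numbered 16 higher and 0 lower with shCTRL VXN 2 added, where 3 other libraries remain and a different pair mean is used, and 12 lower with TMM scaling; the cause was not tested. Some list medians changed sign, most of them close to 0. The sterol efflux median was -0.022 with shCTRL VXN 2 added, -0.0067 without a filter, and -0.0122 to 0.1001 with a library left out (below 0 without shCTRL DMSO 3 or shSLC6A3 DMSO 1). The ribosomal protein median was -0.000127 with shCTRL VXN 2 added. Without a filter the leukocyte median was 0.0474 and the monoamine median 0.0292. At 5 CPM or more the mesenchymal median, 0.57 as reported, was -0.0668, and without a filter it was 0.0011. At 5 CPM or more the interferon median 0.0836. With a library left out the leukocyte median was -0.0536 to 0.0105 (above 0 without shCTRL VXN 3) and the interferon median -0.0569 to 0.0906 (above 0 without shCTRL VXN 3 or shSLC6A3 DMSO 3).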

Other observations

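Repeat subfamilies, counted by the authors beside the genes, had few calls. Of 605 subfamilies with a mean of at least 1 CPM over the 5 libraries, 8 were higher and 4 lower in the trio by the rule used for genes. Among genes 5.83% were higher and 7.21% lower. Without a size limit, 352 subfamilies lay above the pair without overlap and 52 below, with a median log2 difference of 0.20. Of 14496 genes, 83.9% did not overlap, 6123 with the trio above and 6039 with it below. LTR7Y, a long terminal repeat of the endogenous retrovirus HERVH, was the lowest, at 79.8, 78.3 and 118 CPM in the trio, 214 and 223 CPM in the pair and 151 to 217 CPM in the other 4 libraries. Charlie8, a DNA transposon, was at 34.9, 34.7 and 38.02 CPM against 9.50 and 9.38 CPM, and AluYb8, a young Alu subfamily, at 20.6, 20.7 and 25.6 CPM against 8.72 and 8.76 CPM. L1M8, an old LINE-1 subfamily, had 3 levels, at 42.2, 44.1 and 28.8 CPM in the trio, 12.6 and 13.1 CPM in the pair and 5.63 to 7.56 CPM in the other 4 libraries. Reads of a repeat inside a gene cannot be told apart here from transcription of the repeat itself. Repeats took 1.95, 1.95 and 2.12% of counts in the trio, 1.68 and 1.68% in the pair and 1.74 to 1.77% in the other 4 libraries, so the trio was highest and the pair lowest.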
